A study of Mus musculus with 10 samples.

Results

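The 4 mouse heavy chain joining genes, IGHJ1, IGHJ2, IGHJ3 and IGHJ4, were followed through the Igh rearrangements of peritoneal cavity B-1a cells, together with the V and D genes they were joined to. A clonotype, meaning 1 entry of the deposited tables with its V, D and J alleles and its CDR3 amino acid sequence, was taken when exactly 1 J gene was named for it. Entries that differ in an allele alone were kept apart, so 3.13% to 5.73% of the clonotypes of a library shared their V, D and J gene and CDR3 with another one. This left 195480 of 195529 clonotypes, 26726 of IGHJ1, 87115 of IGHJ2, 45273 of IGHJ3 and 36366 of IGHJ4. The other 49 were listed with several J genes and were counted to none. B-1a cells were sorted from the peritoneal cavity of C57BL/6 mice 6 to 8 weeks of age, either wild type (WT) or with a germline knockout of Igll1 (Igll1-/-), and each genotype gave 2 libraries. Igll1 is lost in every cell of the knockout mice, so the libraries do not separate what its loss did in the developing B cell from what it did elsewhere. The labels do not say whether the libraries of a genotype came from separate mice, so p-values measure only the spread between these libraries. The template was genomic DNA, which carries no marker transcripts against which the B-1a label could be checked. Values of a genotype are given with replicate 1 first.

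The heavy chain variable region is assembled by V(D)J recombination, in which a D gene is first joined to a J gene and a V gene is then joined to the DJ product. The J gene writes the last residues of CDR3, the loop at the centre of the antigen binding site, and all of framework region 4. Igll1 encodes λ5, a part of the surrogate light chain that pairs with a new heavy chain to form the pre-B cell receptor. B-1a cells are rich in receptors against phosphatidylcholine, among them those that use IGHV11-2 or IGHV12-3 with IGHJ1. In the reference annotation (GRCm38.p6) the 4 J genes lie on chromosome 12 in the order IGHJ1 to IGHJ4 from the D side and span 53, 48, 48 and 54 bp.

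Because the J gene writes the end of the loop, its choice shows in the CDR3 itself. The most common last 5 residues among productive clonotypes of each J gene over the 4 libraries are shown to make the sequences further on readable.
IGHJ1: WYFDV
IGHJ2: YYFDY
IGHJ3: AWFAY
IGHJ4: YAMDY
The largest clonotypes by reads of WT IGHV11-2 rearrangements are shown because the main difference between the genotypes lay there. All 3 end on IGHJ1, in WYFDV, and differ between the V and the J end, where the D gene lies.
IGHV11-2, IGHD2-1, IGHJ1: MRYGNYWYFDV
IGHV11-2, IGHD1-1, IGHJ1: MRYGSSYWYFDV
IGHV11-2, IGHD2-5, IGHJ1: MRYSNYWYFDV
The largest IGHV11-2 clonotypes of Igll1-/- B-1a cells with each J gene, leaving out those that were also the largest in WT, are shown for comparison.
IGHV11-2, IGHD2-13, IGHJ1: MRSGDWIYWYFDV
IGHV11-2, IGHD1-1, IGHJ2: MRYYYGSSYFDY
IGHV11-2, IGHD1-1, IGHJ3: MRYYYGSRAWFAY
IGHV11-2, IGHD2-5, IGHJ4: MRYSNYYYAMDY

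Single-J clonotypes numbered 55123 and 49798 in the WT libraries and 32381 and 58178 in the Igll1-/- libraries, from 180588 to 285487 reads. Between 68.0% and 73.4% of clonotypes rested on 1 read. The share that 3 clonotypes make up, the least taken as detectable, was 0.0052% to 0.0093%. A clonotype was counted as a possible copy when the same library held its CDR3 and J gene under another V gene with at least 10 times the reads, and these made up 13.9% and 33.8% of WT and 26.7% and 33.7% of Igll1-/- clonotypes. Clonotypes with at least 100 times the reads in another library made up 0.28% to 0.46%. WT replicate 1 therefore stood apart in its low share of possible copies, and the results on IGHV11-2 are also given without them.

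IGHJ2 was the most used J gene in all 4 libraries, and IGHJ3, IGHJ4 and IGHJ1 followed in that order by their means. IGHJ2 made up 45.4% and 45.2% of clonotypes in WT and 44.2% and 43.4% in Igll1-/-. IGHJ3 made up 23.7% and 18.2% in WT and 25.0% and 25.9% in Igll1-/-. The WT replicates of IGHJ3 thus lay further apart than its genotype means, which differed by 4.48 points. IGHJ4 made up 17.9% and 18.4% in WT and 18.1% and 19.7% in Igll1-/-. IGHJ1 made up 13.0% and 18.2% in WT and 12.7% and 10.95% in Igll1-/-. Its WT replicates too lay further apart than its genotype means, where Igll1-/- minus WT was -3.76 points. Counting error was small beside these differences, since the 95% Wilson interval of the IGHJ1 share ran from 12.7% to 13.2% in WT replicate 1 and from 17.9% to 18.6% in WT replicate 2. IGHJ2 exceeded IGHJ3 by 21.4 percentage points on average (SD 4.11, n = 4 libraries), higher in 4 of 4 (exact sign-flip permutation test, p = 0.125, the smallest that 4 libraries allow). IGHJ3 exceeded IGHJ4 by 4.66 points on average (SD 3.23, n = 4), higher in 3 of 4 libraries (p = 0.25 by the same exact test) and at -0.14 points in WT replicate 2. IGHJ1 minus IGHJ4 was -4.81 points (SD 3.56, n = 4), lower in 4 of 4 libraries (p = 0.125 by the same exact test), but only -0.12 points in WT replicate 2.

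**Figure D1:**
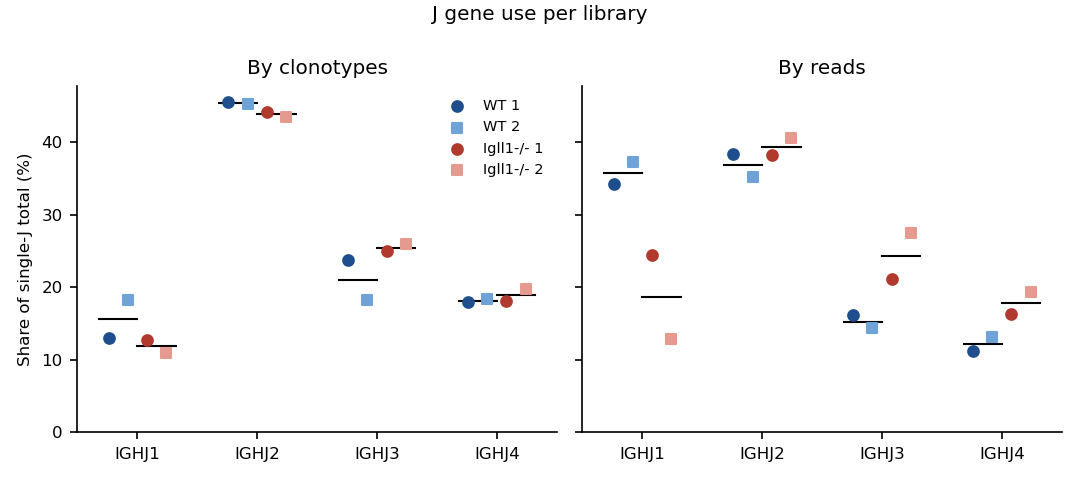
Share of single-J clonotypes (left) and of reads (right), in percent, for each J gene, with a point per library (blue WT, red Igll1-/-, circles replicate 1 and squares replicate 2) and a line at each genotype's mean. IGHJ2 is highest by clonotypes in every library, at 43.4% to 45.4%, and the IGHJ1 share by reads lies at 34.2% and 37.3% in WT against 24.4% and 12.8% in Igll1-/-.

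None of the 4 J genes passed the test of a difference between Igll1-/- and WT when all clonotypes were counted. The test was edgeR's quasi-likelihood test on clonotypes per gene segment with Benjamini-Hochberg adjustment, over 117 V, D and J genes. It called 0 of the 117 segments (0%), and 12 had an unadjusted p under 0.05. DESeq2 called 1 segment. The log2 fold change of Igll1-/- over WT was -0.40 for IGHJ1 (SE 0.20, edgeR adjusted p = 0.518), -0.05 for IGHJ2 (SE 0.03, adjusted p = 0.518), 0.28 for IGHJ3 (SE 0.14, adjusted p = 0.518) and 0.06 for IGHJ4 (SE 0.07, adjusted p = 0.786). IGHJ1 and IGHJ2 lay lower and IGHJ3 higher in both Igll1-/- libraries, while IGHJ4 overlapped between genotypes. Such separation was common, since 41% of all segments did not overlap. With 2 libraries per genotype an exact permutation test cannot give a p under 0.333. The J counts of replicates were not those of 1 library deposited more than once (chi-square 843 on 3 degrees of freedom between the WT and 94.0 between the Igll1-/- replicates, taking clonotypes as independent, which possible copies are not). IGHJ1, alone among the J genes, passed the threshold without Igll1-/- replicate 1, where its value was -0.51 (edgeR adjusted p = 0.041), and it ran from -0.62 to -0.13 as each library in turn was left out.

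By reads, which also weight a clonotype by its cells and its PCR yield, IGHJ1 stood higher than by clonotypes in every library. It held 34.2% and 37.3% of reads in WT and 24.4% and 12.8% in Igll1-/-. This was 21.3 and 19.1 percentage points above its share of clonotypes in WT, and 11.7 and 1.86 points in Igll1-/-. IGHJ2 and IGHJ4 held a smaller share of reads than of clonotypes in all 4 libraries, with differences of -10.02 to -2.92 and of -6.70 to -0.44 points. By reads IGHJ3 held 16.1% and 14.4% in WT and 21.2% and 27.4% in Igll1-/-, and IGHJ4 11.2% and 13.2% against 16.3% and 19.3%. IGHJ1, IGHJ3 and IGHJ4 did not overlap between genotypes by reads, as was so for 43.3% of the 127 segments tested. IGHJ1 did not pass the fit on reads, at -0.94 on the log2 scale (edgeR adjusted p = 0.353).

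Most IGHJ1 reads in WT, 59.04% and 63.8%, carried IGHV11-2. Without IGHV11-2, IGHJ1 held 17.7% and 17.8% of reads in WT and 24.3% and 12.6% in Igll1-/-, so the genotypes overlapped. Without IGHV12-3 as well it held 8.10% and 13.4% in WT and 10.95% and 9.92% in Igll1-/-. By clonotypes, leaving out IGHV11-2 moved the log2 fold change of IGHJ1 from -0.40 to -0.19. That alternative was chosen after the data had been seen.

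Clonotypes were also split by size. Among clonotypes with 1 read, IGHJ1 made up 13.1% and 17.3% in WT and 12.5% and 11.2% in Igll1-/-. Among those with at least 100 reads it made up 37.1% and 40.4% of 140 and 183 WT clonotypes, and 23.1% and 10.2% of 182 and 334 Igll1-/- clonotypes. From the smallest to the largest class the IGHJ1 share was thus higher in both WT libraries and in Igll1-/- replicate 1, and slightly lower in Igll1-/- replicate 2. Without IGHV11-2 the share among clonotypes of at least 100 reads was 25.0% and 23.8% in WT and 23.2% and 9.67% in Igll1-/-. IGHJ4 made up 9.29% and 6.56% of the largest WT clonotypes and 17.6% and 20.7% of the largest Igll1-/- clonotypes, and 11.2% and 8.39% against 17.7% and 20.8% without IGHV11-2. IGHJ3 made up 11.4% and 15.8% of them in WT and 20.3% and 29.0% in Igll1-/-, and IGHJ2 42.1% and 37.2% against 39.0% and 40.1%. IGHJ2 overlapped between genotypes in this class, which holds few clonotypes and was given no test. IGHJ3 overlapped there too without IGHV11-2, at 13.8% and 20.3% against 19.9% and 29.3%. Without IGHV12-3 as well, IGHJ1 stood at 3.23% and 14.2% in WT and 12.5% and 9.03% in Igll1-/-, and IGHJ4 at 20.97% and 10.6% against 21.05% and 22.3%, so the separation of IGHJ1 was gone and that of IGHJ4 rested on WT replicate 2.

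**Figure D2:**
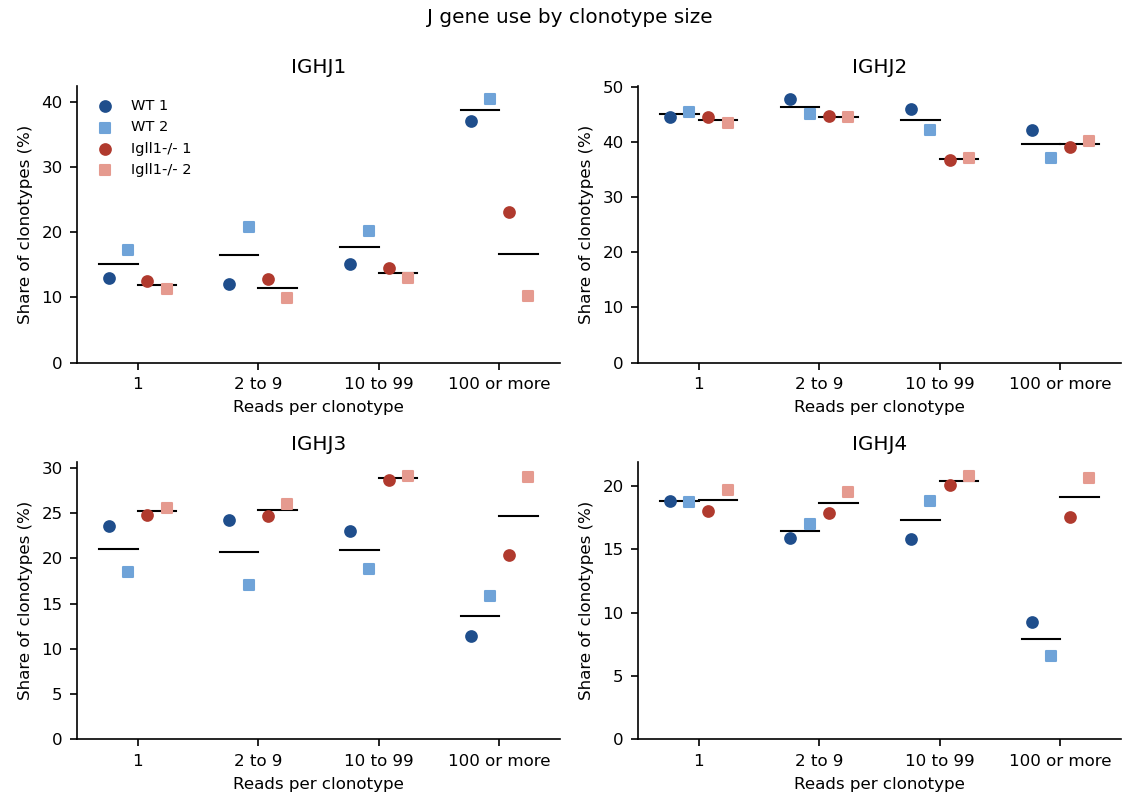
Share of each J gene, in percent of clonotypes, among clonotypes with 1, 2 to 9, 10 to 99 and 100 or more reads, with a point per library (blue WT, red Igll1-/-) and a line at each genotype's mean. IGHJ1 in WT climbs to 37.1% and 40.4% in the largest class, and IGHJ4 drops there to 9.29% and 6.56%, against 23.1% and 10.2% for IGHJ1 and 17.6% and 20.7% for IGHJ4 in Igll1-/-.

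J choice passed the test of a difference between genotypes within 1 V gene, IGHV11-2. As shares of the IGHV11-2 clonotypes, IGHJ1 fell and IGHJ2, IGHJ3 and IGHJ4 rose in Igll1-/- B-1a cells. Of the IGHV11-2 clonotypes, 1648 and 2384 in WT and 266 and 559 in Igll1-/-, IGHJ1 was joined to 74.8% and 72.4% in WT and to 33.5% and 31.7% in Igll1-/-. IGHJ2 was joined to 15.5% and 15.3% in WT and to 32.0% and 38.5% in Igll1-/-. IGHJ3 was joined to 5.16% and 6.33% in WT and to 21.4% and 14.3% in Igll1-/-. IGHJ4 was joined to 4.49% and 5.91% in WT and to 13.2% and 15.6% in Igll1-/-. For all 4 J genes the genotypes did not overlap, as was so for 40.8% of all V-J pairs, and they lay further apart than their replicates. The mean IGHJ1 share fell by 41.1 percentage points against an SD of 1.68 in WT and 1.27 in Igll1-/- (n = 2 each).

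Each V gene's own clonotype total was taken as the offset in the fit, so that it read which J gene a V gene was joined to and not how often the V gene was used. Of 272 V-J pairs tested, 4 passed an edgeR adjusted p of 0.05 (1.47%), 3 higher (1.1%) and 1 lower (0.368%) in Igll1-/-, and all 4 belonged to IGHV11-2. The log2 fold change was -1.18 for IGHJ1 (SE 0.14, edgeR adjusted p = 0.000864), 1.20 for IGHJ2 (SE 0.18, adjusted p = 0.00266), 1.60 for IGHJ3 (SE 0.29, adjusted p = 0.0110) and 1.47 for IGHJ4 (SE 0.28, adjusted p = 0.0142). The 4 shares add up to 100%, so these are 4 readings of 1 shift and not 4 independent results. Counted by reads the IGHJ1 value was -1.12 and no longer passed (edgeR adjusted p = 0.0722). It did not pass either with at least 10 reads per clonotype, which left 12 and 24 IGHV11-2 clonotypes in Igll1-/- (-0.75, edgeR adjusted p = 0.477). The IGHJ4 call was lost without Igll1-/- replicate 2 (1.33, edgeR adjusted p = 0.223).

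**Figure D3:**
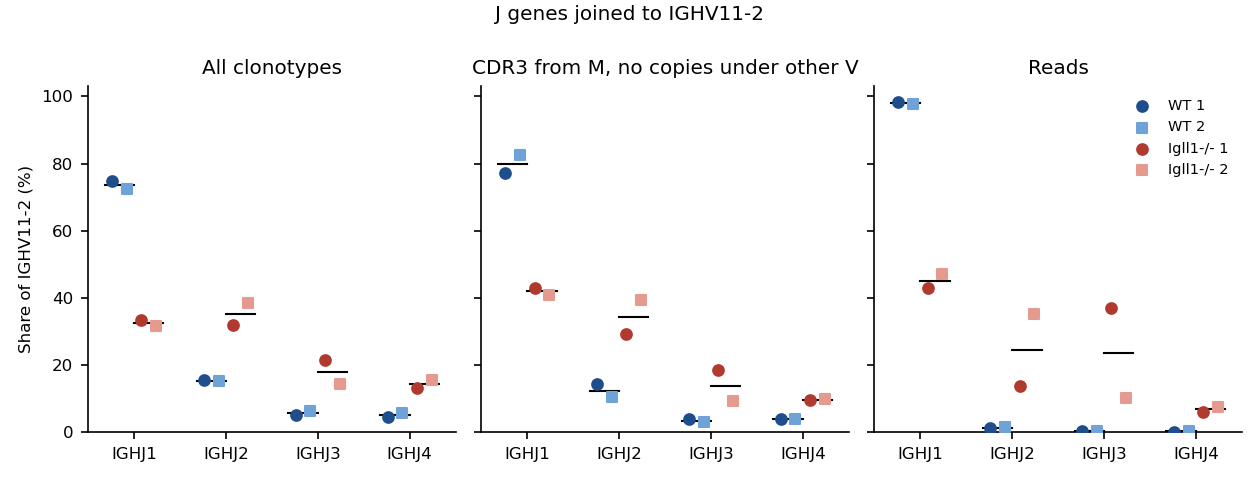
Share of each J gene, in percent, among all IGHV11-2 clonotypes (left), among those with a CDR3 that begins with M and no larger clonotype of that CDR3 and J gene under another V gene (middle), and among IGHV11-2 reads (right), with a point per library and a line at each genotype's mean. IGHJ1 lies at 74.8% and 72.4% in WT and at 33.5% and 31.7% in Igll1-/- on the left, and at 98.2% and 97.7% against 43.0% and 47.1% on the right.

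Counted against the whole library, the IGHV11-2 and IGHJ1 pair was the only 1 of 272 pairs to pass, 0.368%. It held 1233 and 1727 clonotypes in WT and 89 and 177 in Igll1-/-, a log2 fold change of -3.30 (SE 0.37, edgeR adjusted p = 0.00403). This call was lost without WT replicate 1 (-3.58, edgeR adjusted p = 0.126) and without WT replicate 2 (-2.95, edgeR adjusted p = 0.169). On this scale none of the other IGHV11-2 pairs was higher in Igll1-/-, with fitted values of -0.92 for IGHJ2 (SE 0.43, edgeR adjusted p = 0.573), -0.55 for IGHJ3 (edgeR adjusted p = 0.781) and -0.69 for IGHJ4 (edgeR adjusted p = 0.749), and none of the 3 passed.

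The reads of IGHV11-2 were more one-sided still. IGHJ1 took 98.2% of 44493 and 97.7% of 51840 IGHV11-2 reads in WT, and 43.0% of 889 and 47.1% of 2006 in Igll1-/-. Reads of a named CDR3 are summed, here and below, over all entries with its V gene, J gene and CDR3, whatever their D gene. MRYGNYWYFDV, whose largest entry carried IGHD2-1, had 13691 and 15993 reads in WT and 66 and 129 in Igll1-/-. MRYGSSYWYFDV had 8858 and 2986 reads in WT and 58 and 135 in Igll1-/-. MRYSNYWYFDV had 5464 and 7961 reads in WT and 41 and 59 in Igll1-/-. All 3 were found in all 4 libraries, with at least 2986 reads in each WT library and at most 135 in either Igll1-/- library. MRYGNYWYFDV and MRYSNYWYFDV in both Igll1-/- libraries, and MRYGSSYWYFDV in replicate 1, had at least 100 times the reads in a WT library. They thus count among the possible copies from another library, and the Igll1-/- read shares of IGHJ1 above include them. The leading IGHV11-2 clonotypes of Igll1-/- cells were not IGHJ1 alone. MRYYYGSSYFDY, which ends on IGHJ2, had 211 reads in Igll1-/- replicate 2, 0 in Igll1-/- replicate 1 and 4 and 1 in WT. MRYYYGSRAWFAY, on IGHJ3, had 229 reads in Igll1-/- replicate 1, 0 in replicate 2 and 5 and 1 in WT. MRSGDWIYWYFDV, on IGHJ1, had 204 reads in Igll1-/- replicate 2, and MRYSNYYYAMDY, on IGHJ4, had 35 there. These 4 were each large in 1 Igll1-/- library and at most at 5 reads in any other.

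Possible copies moved with the result and were counted. Copies under another V gene made up 4.13% and 11.7% of IGHV11-2 clonotypes in WT and 24.4% and 29.3% in Igll1-/-, and copies of a clonotype at least 100 times larger in another library made up 0.57% and 0.41% of the IGHV11-2 and IGHJ1 clonotypes in WT and 25.8% and 17.5% in Igll1-/-. Without the first kind the IGHJ1 share was 75.9% and 77.9% in WT and 39.3% and 39.2% in Igll1-/- (log2 fold change -0.97, edgeR adjusted p = 0.0103). The calls of IGHJ3 and IGHJ4 were lost without the first kind (edgeR adjusted p = 0.0680 and 0.146). Leaving out the second kind would take 23 and 31 clonotypes of IGHJ1 and at most 1 of any other J gene from IGHV11-2 in Igll1-/-, so no share is given without them. The largest WT clonotypes of IGHV11-2 begin with M. Among clonotypes with that start and without the first kind of copy, 1354 and 1540 in WT and 168 and 339 in Igll1-/-, IGHJ1 made up 77.3% and 82.5% in WT and 42.9% and 41.003% in Igll1-/-. In this set, chosen after the data had been seen, IGHJ2 made up 14.5% and 10.4% against 29.2% and 39.5%, IGHJ3 4.06% and 2.99% against 18.5% and 9.44%, and IGHJ4 4.06% and 4.09% against 9.52% and 10.03%.

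Among IGHV11-2 clonotypes listed as unproductive, 242 and 241 in WT and 27 and 64 in Igll1-/-, IGHJ1 made up 64.9% and 66.4% in WT and 22.2% and 20.3% in Igll1-/-. IGHJ1 within IGHV11-2 also passed when only unproductive clonotypes were fitted, at -1.64 on the log2 scale (edgeR adjusted p = 0.00655). These clonotypes are in frame, and whether they are sequence variants of larger productive IGHJ1 clonotypes was not tested. With each small clonotype merged into a 10 times larger one that differed from it by at most 1 residue, the IGHJ1 share was 60.3% and 56.0% in WT and 25.96% and 20.8% in Igll1-/- (-1.35, edgeR adjusted p = 0.00113).

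Whole V families repeated the same shift. IGHV11-2 gave 1648 of 1757 and 2384 of 2466 IGHV11 clonotypes in WT, and 266 of 342 and 559 of 775 in Igll1-/-. The IGHV11 calls are therefore not a separate result. Of 49 pairs of a V family and a J gene, 4 passed (8.16%), 3 higher (6.12%) and 1 lower (2.04%) in Igll1-/-, all in IGHV11, where the log2 fold change was -1.20 for IGHJ1 (edgeR adjusted p = 0.0105), 1.06 for IGHJ2, 1.56 for IGHJ3 and 1.4998 for IGHJ4 (edgeR adjusted p = 0.0195 each). IGHJ1 made up 71.7% and 71.5% of IGHV11 clonotypes in WT and 31.3% and 31.0% in Igll1-/-. All 4 calls were lost without either Igll1-/- replicate, where the IGHJ1 value still lay within -1.21 to -1.19.

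In IGHV12, the other family linked with phosphatidylcholine, J choice overlapped between genotypes. IGHJ1 was joined to 35.8% and 38.4% of its clonotypes in WT and to 42.6% and 19.6% in Igll1-/-, and IGHJ2 to 49.3% and 36.9% against 44.2% and 62.0%. IGHV12-3 itself gave a log2 fold change of -0.26 for IGHJ1 (SE 0.26, edgeR adjusted p = 0.751). For IGHJ1 the Igll1-/- libraries lay on opposite sides of both WT libraries. The reads of IGHV12-3 were uneven, with single large clonotypes. AGDNYGYWYFDV, an IGHJ1 sequence, had 22381 reads in Igll1-/- replicate 1 and 307, 236 and 88 in the others, and AGDLYDGYYYFDY, an IGHJ2 sequence, had 10523 in Igll1-/- replicate 2 and 89, 19 and 25 in the others. By reads IGHJ1 took 54.1% and 58.7% of IGHV12 in WT and 74.1% and 31.7% in Igll1-/-. IGHJ4 was rare in IGHV12 throughout, at 4.94% to 7.93% of clonotypes. Of the other V genes picked by name, IGHV5-2 had 68 to 246 clonotypes per library, with IGHJ1 at 11.2% and 22.8% in WT and 10.3% and 13.4% in Igll1-/-, and IGHV7-1 had at most 7, too few to read.

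**Figure D4:**
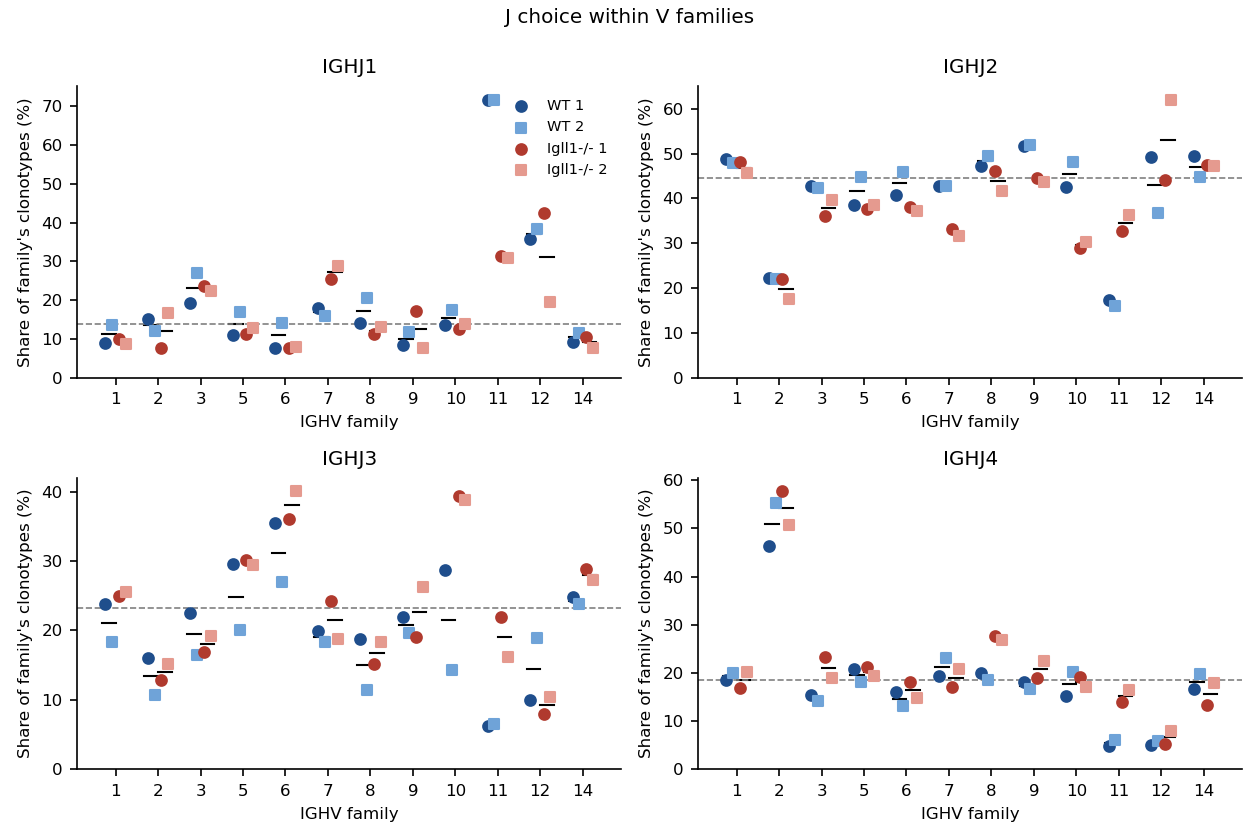
Share of each J gene, in percent of the family's clonotypes, in the 12 V families with at least 100 clonotypes in every library, with a point per library (blue WT, red Igll1-/-), a line at each genotype's mean and a dashed line at the J gene's mean share of the whole library. IGHV11 stands apart for IGHJ1 in WT at 71.7% and 71.5%, and IGHV2 for IGHJ4 in every library at 46.5% to 57.7%.

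In IGHV2 another J gene led, in each library alike. IGHJ4 was its main partner, at 46.5% and 55.3% of clonotypes in WT and 57.7% and 50.7% in Igll1-/-, and IGHJ2 made up only 17.5% to 22.3%. By reads IGHJ4 took 56.3% to 80.5% of IGHV2. The IGHV2-3 gene followed its family, with IGHJ4 at 42.9% to 52.1%, and its IGHJ1 share was 21.7% and 16.0% in WT and 8.07% and 5.47% in Igll1-/- (log2 fold change -1.43, SE 0.37, edgeR adjusted p = 0.103). IGHV6 had more IGHJ3 than the whole library in every library, at 35.5% and 27.0% in WT and 36.0% and 40.1% in Igll1-/-. IGHV1, the largest family with 18489 to 32347 clonotypes, had little IGHJ1, at 8.80% and 13.7% in WT and 10.03% and 8.67% in Igll1-/-. IGHV3 had more, at 19.3% to 26.9%.

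Of the 49 family pairs, 42.9% did not overlap between genotypes, the 4 pairs of IGHV11 among them. IGHV7, of which IGHV7-3 gave 658 to 1191 of 678 to 1248 clonotypes per library, had IGHJ1 at 18.0% and 15.9% in WT and 25.5% and 28.8% in Igll1-/- (log2 fold change 0.68, edgeR adjusted p = 0.0848) and IGHJ2 at 42.8% and 42.7% against 33.2% and 31.6%. For IGHJ1 this is the opposite direction to IGHV11-2. Within IGHV7-3 the IGHJ1 log2 fold change was 0.73 (SE 0.17, edgeR adjusted p = 0.0676). Among clonotypes of 10 or more reads it passed, at 1.48 (edgeR adjusted p = 0.0422). Leaving out Igll1-/- replicate 1 it passed at 0.81 (edgeR adjusted p = 0.0131), and leaving out replicate 2 it gave 0.63 (edgeR adjusted p = 0.695). IGHV10 had IGHJ2 at 42.6% and 48.2% in WT and 29.0% and 30.4% in Igll1-/- (-0.61, edgeR adjusted p = 0.120). IGHV8 had IGHJ4 at 20.03% and 18.5% in WT and 27.6% and 26.9% in Igll1-/- (0.50, edgeR adjusted p = 0.188). No pair of IGHV5, IGHV9 or IGHV14 passed either, and IGHV9 had IGHJ1 at 8.39% and 11.8% in WT and 17.2% and 7.66% in Igll1-/-.

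Among the 46 V genes with at least 100 clonotypes in every library, the J profile of IGHV11-2 lay farthest, by the mean over libraries, from that of the whole library. The distance, the percent of clonotypes that would have to carry another J gene for the profiles to match, was 39.4% for IGHV11-2, 32.6% for IGHV2-3 and 26.3% for IGHV12-3 on average over the 4 libraries. It ran from 20.7% to 61.9% for IGHV11-2, with the low values in Igll1-/-, from 30.3% to 33.7% for IGHV2-3 and from 21.04% to 29.96% for IGHV12-3, so IGHV11-2 did not lie farthest in every library. The nearest were IGHV1-72 at 3.94%, IGHV1-63 at 4.18% and IGHV1-81 at 4.44%. In IGHV1-72 the IGHJ2 share was 44.4% and 46.7% in WT and 40.3% and 45.3% in Igll1-/-, close to the whole library. Over all V genes tested, the log2 fold change within V genes was above 0 in 11 of 58 pairs with IGHJ1 (median -0.27), in 26 of 80 with IGHJ2 (median -0.11), in 54 of 66 with IGHJ3 (median 0.24) and in 38 of 68 with IGHJ4 (median 0.03), against a median of -0.04 over all 272. The V genes share their libraries, so these counts describe the libraries and carry no test.

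Seen from the J side, IGHJ1 had the narrowest set of V partners. The effective number of V genes, the number of equally used genes with the same Shannon entropy, was 29.7 and 29.6 for IGHJ1 in WT and 35.7 and 40.5 in Igll1-/-. For IGHJ2 it was 46.7 and 48.7 in WT and 44.8 and 45.3 in Igll1-/-, and for IGHJ3 and IGHJ4 it lay between 41.6 and 50.4. It was higher in Igll1-/- for IGHJ1 and lower for IGHJ2 and IGHJ3 without overlap, and IGHJ4 overlapped. This is 75% of the 4 J genes, too few for a background. Separation was common in these libraries, at 41% of all segments by share of clonotypes. By reads the number for IGHJ1 was 3.90 and 4.57 in WT and 4.85 and 17.3 in Igll1-/-, against 24.8 to 42.6 for the other J genes. IGHV11-2 made up 17.3% and 19.0% of IGHJ1 clonotypes in WT and 2.16% and 2.78% in Igll1-/-, and 59.04% and 63.8% of IGHJ1 reads in WT against 0.87% and 2.58%. IGHV12-3 was its main partner on average, at 14.1% and 9.73% of IGHJ1 clonotypes in WT and 15.03% and 7.82% in Igll1-/-, followed after IGHV11-2 by IGHV5-17 at 3.50% to 6.43%. In Igll1-/- replicate 1 IGHV12-3 took 64.0% of IGHJ1 reads, and a single AGDNYGYWYFDV clonotype took 50.3%.

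IGHV5-17 was among the 3 leading V partners of each J gene. It came first for IGHJ3, at 8.07% and 4.77% of its clonotypes in WT and 8.80% and 8.93% in Igll1-/-, and first for IGHJ4, at 7.40% and 4.51% against 5.42% and 6.62%. IGHJ2 was led by IGHV12-3, at 3.75% to 6.18%, IGHV5-17 at 3.43% to 6.24% and IGHV1-19 at 3.49% to 5.53%. IGHV5-4 and IGHV1-53 followed for IGHJ3, and IGHV5-4 and IGHV1-19 for IGHJ4. Between 2 J genes of the same library, 26.3% to 29.1% of clonotypes on average would have to carry another V gene for IGHJ1 to match another J gene, but 13.8% to 15.8% for IGHJ2, IGHJ3 and IGHJ4 among each other. For the same J gene, IGHJ1 differed by 29.6% between genotypes, 15.1% between WT replicates and 26.3% between Igll1-/- replicates. For IGHJ2 the values were 17.7%, 16.4% and 16.6%, for IGHJ3 18.6%, 18.7% and 17.5%, and for IGHJ4 19.5%, 18.2% and 21.4%. For IGHJ2, IGHJ3 and IGHJ4 a comparison across genotypes thus gave much the same distance as one within a genotype. For IGHJ1 it gave a larger one than the WT replicates, but the Igll1-/- replicates were nearly that far apart themselves.

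With D genes, 1 pair of 84 passed, 1.19%. IGHJ1 fell with IGHD2-5, from 16.8% and 25.3% of its clonotypes in WT to 8.73% and 7.91% in Igll1-/- (log2 fold change -1.34, SE 0.25, edgeR adjusted p = 0.0417). IGHD2-5 is the D gene of MRYSNYWYFDV. Without IGHV11-2 clonotypes the IGHJ1 share was 11.8% and 19.1% in WT and 8.48% and 7.48% in Igll1-/-, and the call was lost (-0.95, edgeR adjusted p = 0.443). It was also lost without WT replicate 2 (-1.02, edgeR adjusted p = 0.0688) and with near-identical clonotypes merged (-0.99, edgeR adjusted p = 0.461). IGHD2-1, the D gene of MRYGNYWYFDV, had IGHJ1 at 14.9% and 28.4% in WT and 9.55% and 7.27% in Igll1-/- (-1.37, edgeR adjusted p = 0.0745), and at 9.89% and 21.2% against 9.08% and 6.94% without IGHV11-2. IGHJ4 was joined to 21.2% and 20.9% of IGHD2-5 clonotypes in WT and to 30.1% and 33.9% in Igll1-/- (0.60, edgeR adjusted p = 0.172). The genotypes did not overlap in 41.7% of the 84 pairs.

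Some D genes had a J preference of their own in all 4 libraries. IGHD4-1, the D gene nearest to the J genes, was joined to IGHJ2 in 55.5% and 54.9% of clonotypes in WT and 53.1% and 51.2% in Igll1-/-, and to IGHJ4 in only 8.17% to 10.4%. IGHD2-4 had IGHJ3 at 34.3% and 24.6% in WT and 33.3% and 40.7% in Igll1-/-. IGHD3-2 had IGHJ1 at 5.20% and 11.3% in WT and 3.01% and 4.14% in Igll1-/-, below the IGHJ1 share of the whole library in each. IGHD1-1, the most used D gene with 9755 to 18061 clonotypes, had IGHJ3 at 18.9% and 11.99% in WT and 19.4% and 20.2% in Igll1-/- and IGHJ1 at 13.7% to 19.5%. IGHD6-2 had IGHJ2 at 49.2% to 66.1%. Of the 19 pairs of IGHJ1 with a D gene that were tested, 2 had a log2 fold change above 0 (median -0.44), and of the 22 of IGHJ3, 18 did (median 0.33), against a median of -0.03 over all pairs. The D genes share their libraries as the V genes do, so these counts too describe the libraries and carry no test.

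The share of clonotypes listed as productive lay between 91.7% and 94.7% for every J gene and library. The unproductive clonotypes of these tables are in frame too, since 0 of the CDR3 sequences carry a frameshift mark, so out-of-frame rearrangements are not part of these shares. For IGHJ1 the share was 91.8% and 93.7% in WT and 93.3% and 92.3% in Igll1-/-. For IGHJ2 it was 92.4% and 92.9% in WT and 94.1% and 94.1% in Igll1-/-, and for IGHJ3 91.9% and 93.8% against 94.7% and 94.7%. For IGHJ4 it was 92.9% and 91.7% against 93.2% and 93.6%. The last 3 did not overlap between genotypes, so 75% of the 4 J genes were separated (exact permutation test, p = 0.333, the smallest possible). This is not particular to them, since over all clonotypes of a library the share was 92.3% and 93.0% in WT and 94.0% and 94.0% in Igll1-/-. Separation was also common in these libraries, at 41% of all segments by share of clonotypes. Conversely, the share of each J gene was compared between productive and unproductive clonotypes of the same library. For IGHJ3 the productive minus the unproductive share was -1.35 points in WT replicate 1 and 2.33, 3.26 and 3.44 points in the other 3 libraries (exact sign-flip permutation test, p = 0.25). For IGHJ1 the differences were -0.91 and 2.01 points in WT and -1.62 and -3.16 in Igll1-/- (p = 0.5 by the same exact test). IGHJ2 differed by at most 0.83 points in either direction and IGHJ4 by -3.55 to 1.56, so no J gene moved the same way in all 4 libraries. Among unproductive clonotypes IGHJ1 made up 13.8% and 16.4% in WT and 14.3% and 13.9% in Igll1-/-, which overlap, and 72.8% to 87.8% of unproductive clonotypes carried a stop within CDR3. For the rest the tables used here give no reason.

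CDR3 length separated the J genes into pairs. IGHJ1 and IGHJ4 gave long loops and IGHJ2 and IGHJ3 short ones. The mean length over productive clonotypes was 12.03 and 11.8 amino acids for IGHJ1 in WT and 11.7 and 12.04 in Igll1-/-. For IGHJ4 it was 12.1 and 11.8 in WT and 12.004 and 11.6 in Igll1-/-. For IGHJ2 it was 9.94 and 9.76 in WT and 9.73 and 9.60 in Igll1-/-, and for IGHJ3 10.3 and 9.75 against 9.85 and 9.58. Within a library IGHJ1 exceeded IGHJ2 by 2.15 residues (SD 0.20, n = 4 libraries) and IGHJ3 by 2.03 (SD 0.32), and IGHJ2 minus IGHJ4 was -2.12 (SD 0.13) and IGHJ3 minus IGHJ4 -1.995 (SD 0.16), each with the same sign in 4 of 4 libraries (exact sign-flip permutation test, p = 0.125). IGHJ1 and IGHJ4 differed by 0.03 residues (SD 0.32, n = 4), within their spread. IGHJ2 alone had shorter loops in both Igll1-/- libraries than in both WT libraries, by a mean difference of -0.19 residues, and 25% of the 4 J genes were separated in this way.

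**Figure D5:**
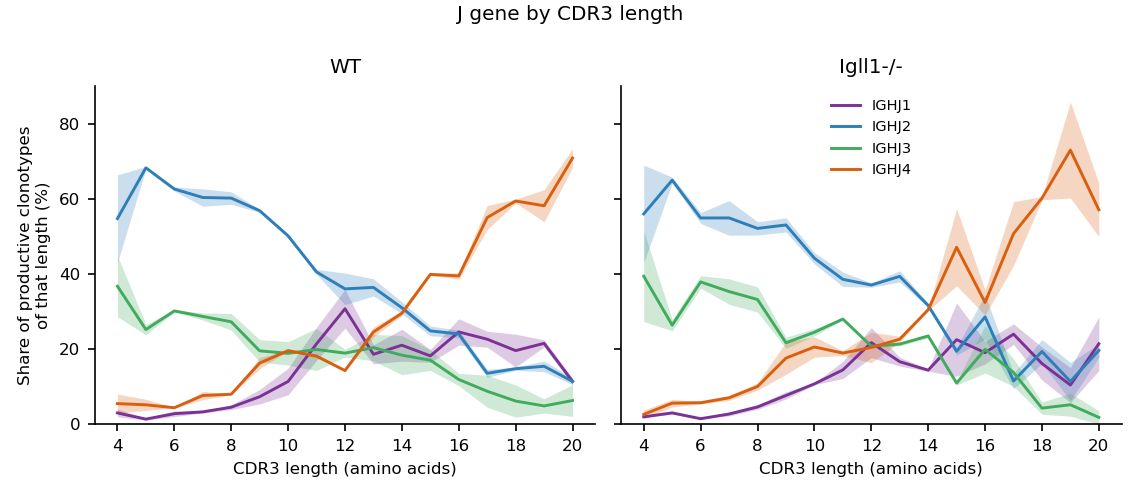
Share of each J gene, in percent of the productive clonotypes of a given CDR3 length in amino acids, in WT (left) and Igll1-/- (right), with a line at the mean of the 2 libraries and a band between them. IGHJ2 has the highest mean in both genotypes up to 14 residues, at 53.5% to 63.2% of each library with 6 residues, and IGHJ4 from 15, at 42.2% to 59.3% with 17.

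The shift from one pair to the other ran along the whole range of lengths. Loops of at most 8 residues made up 4.97% and 4.96% of IGHJ1 clonotypes in WT and 6.37% and 7.73% in Igll1-/-, but 30.6% and 33.0% against 34.0% and 36.2% of IGHJ2 clonotypes. Loops of at least 15 residues made up 18.8% and 18.1% of IGHJ4 clonotypes in WT and 21.02% and 14.6% in Igll1-/-, and 2.95% to 4.04% of IGHJ2 clonotypes. With 12 residues, the length of MRYGSSYWYFDV, IGHJ1 made up 25.6% and 35.9% of clonotypes in WT and 25.7% and 17.7% in Igll1-/-. With 6 residues IGHJ2 made up 63.2% and 62.2% in WT and 53.5% and 56.4% in Igll1-/-, and IGHJ3 30.5% and 29.9% against 39.6% and 36.2%. Over the lengths from 4 to 20 residues, 41.2% of the 68 shares did not overlap between genotypes. The largest IGHJ3 clonotype was a short one, ARGGFAY, joined from IGHV1-47 with no D gene named, at 798 and 717 reads in WT and 4307 and 833 in Igll1-/-. The largest productive IGHJ4 clonotype of Igll1-/- replicate 2, ARSTVVAMDY, had 2998 reads there, 645 in the other Igll1-/- library and 0 in WT, and that of WT replicate 1, ARDYDGYYDYAMDY, had 510 reads there and 78, 3 and 12 elsewhere. The largest of IGHJ2 in WT replicate 1 and in Igll1-/- replicate 1 was the same sequence, ARHYYGSSYYFDY from IGHV5-17 and IGHD1-1. Summed over its entries with IGHV5-17, whatever their D gene, it had 3063 and 777 reads in WT and 5747 and 123 in Igll1-/-.

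The common ends were held by different shares of each J gene's clonotypes. They were taken from these tables and not from the germline J genes, so residues encoded by J and residues added at the junction were not told apart. WYFDV ended 64.2% and 66.9% of productive IGHJ1 clonotypes in WT and 67.8% and 68.6% in Igll1-/-, and YAMDY ended 65.9% and 66.9% of IGHJ4 clonotypes against 67.6% and 64.6%. YYFDY ended 18.1% and 18.6% of IGHJ2 clonotypes in WT and 19.2% and 21.1% in Igll1-/-, and AWFAY 16.5% and 13.4% of IGHJ3 clonotypes against 14.0% and 14.0%. IGHJ1 and IGHJ4 clonotypes thus carried their common end more often than IGHJ2 and IGHJ3 clonotypes, in all 4 libraries. The last 3 residues of these ends closed 84.9% to 86.7% of IGHJ1, 58.8% to 62.0% of IGHJ2, 65.0% to 77.1% of IGHJ3 and 86.2% to 91.3% of IGHJ4 clonotypes. The WYFDV and YYFDY shares were higher in both Igll1-/- libraries, by 2.65 and 1.84 points (exact permutation test, p = 0.333, the smallest possible). For IGHJ2 the direction depended on the length of the end, since FDY was lower, at 62.0% and 61.7% in WT against 59.5% and 58.8%. FDV of IGHJ1 was higher, at 84.9% and 85.5% against 86.0% and 86.7%, and FAY of IGHJ3 and MDY of IGHJ4 overlapped between genotypes.

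The use of a J gene across the 4 libraries was also set against that of 65 V and D genes with at least 100 clonotypes in every library, each scaled to its own mean. The measure is the sum of absolute differences over the 4 libraries, and a small sum over so few points is only a description. IGHD4-1 (0.235), IGHV1-36 (0.313) and IGHD5-1 (0.333) lay nearest to IGHJ1, and IGHD6-2 (0.0334), IGHD6-3 (0.0781) and IGHV1-82 (0.0806) to IGHJ2. IGHV5-4 (0.0965), IGHD2-14 (0.256) and IGHD2-4 (0.266) lay nearest to IGHJ3, and IGHD1-1 (0.0896), IGHV7-3 (0.121) and IGHD2-1 (0.145) to IGHJ4.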

How the data were processed

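Igh rearrangements were amplified from genomic DNA of sorted cells with primers in framework region 3 of the V genes and in the J genes, adapted from the BIOMED-2 set, and products of 120 to 280 bp were kept. A V or J share therefore depends on its primer too. The authors assigned reads with IMGT/HighV-QUEST (version not given in the sources used here) and deposited a table per library with the V, D and J gene, CDR3 and functionality of each clonotype, its count of reads, and its percent identity to the germline V gene. There are no molecular identifiers, so intervals and floors cover counting error only.

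The J genes, tests and gene lists were chosen with earlier results of these data known. Named were the 4 J genes, V families and D genes with at least 100 clonotypes in every library, the 3 leading V partners of each J gene, the 3 V genes nearest to and the 3 farthest from the library's J profile, pairs that passed a fit, IGHV11-2, IGHV12-3, IGHV7-1 and IGHV5-2, the largest clonotypes, and the 3 genes nearest in pattern. MRYSNYWYFDV, the 4 leading IGHV11-2 clonotypes of Igll1-/-, IGHV7-3 and pairs with high adjusted p were named after their values were seen.

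Clonotypes were counted once each. A feature was tested when 2 or more libraries held 10 or more of its clonotypes. The tests used edgeR 4.0.16 (quasi-likelihood, Benjamini-Hochberg) in R 4.3.3, with the single-J total, or the total of the V gene, V family or D gene, as offset. Clonotypes with several V genes (14.3% to 21.3%) entered no V gene, and those with no D gene (5.62% to 6.71%) no D gene. DESeq2 1.42.0 served as an alternative. Means per library were compared by exact permutation tests with scipy 1.17.1, and every statistic fitted across many features was tested on simulated data. Of simulated 4-fold changes, the fit recovered 59.35% for segments, 48.98% for V-J pairs against the whole library and 96.85% for pairs within V genes. A feature that did not pass may therefore still differ. The paper describes independent experiments, but the labels do not say whether libraries with the same replicate number belong together. Same-numbered libraries deviated together at r = 0.13 over segments and -0.22 over V-J pairs within V genes. A low r cannot show that they were handled apart, and the main fits used no pairing. The Igk tables were not used here.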

Additional observations from a re-analysis of the deposited data

How the results depend on the processing

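Of the values that answer a comparison, 214 kept their direction and their side of the threshold, or moved by less than the replicate spread, under an alternative, 5 reversed, 26 moved further, 25 grew stronger and 16 weaker. These values include the number of features called in each fit. That number was taken as kept when it stayed within a fixed ratio, as stronger when it rose further and as weaker when it fell further. The alternatives that removed copies, left out IGHV11-2 or crossed the replicate numbers were chosen after the data had been seen. IGHV11-2 rests on 266 and 559 clonotypes in Igll1-/-, and 1-read clonotypes are the majority. Causes were not tested.

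The count of segments called rose from 0 to 1 by reads, 3 with at least 10 reads, 1 without copies under another V gene and 1 with DESeq2. V-J pairs went from 1 to 14 with at least 10 reads and 6 with no low-count filter. Pairs within V genes went from 4 to 1 among unproductive clonotypes, 2 when merged, 7 with no low-count filter and 2 without copies. Family pairs went from 4 to 2 with at least 10 reads and 0 among unproductive clonotypes. D gene pairs went from 1 to 2 by reads, 0 with at least 2 reads, 4 with at least 10, 3 among productive and 0 among unproductive clonotypes, 0 when merged, 2 with no low-count filter, 0 without copies under another V gene, 2 without copies from another library, and 0 without IGHV11-2.

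With each library left out in turn, the count ran from 0 to 5 for segments (5 without either Igll1-/- replicate) and 0 to 8 for V-J pairs (0 without either WT replicate, 8 and 3 without Igll1-/- replicate 1 and 2). It ran from 4 to 11 within V genes (11 without WT replicate 1, 8 without Igll1-/- replicate 1), 0 to 11 within families (11 without WT replicate 1, 0 without either Igll1-/- replicate) and 0 to 11 with D genes (11 without WT replicate 1, 0 without WT replicate 2, 4 and 2 without Igll1-/- replicate 1 and 2). A lone library of a genotype is then assumed to vary like the others.

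The log2 fold change of IGHJ2 over all clonotypes reversed to 0.10 by reads, 0.025 without copies and 0.011 with TMM factors, and that of IGHJ4 to -0.025 without copies. IGHJ3 reached 0.48 with at least 10 reads (edgeR adjusted p = 0.0354). Leaving out 1 library gave -0.62 to -0.13 for IGHJ1, -0.06 to -0.04 for IGHJ2, 0.10 to 0.48 for IGHJ3 and -0.0014 to 0.12 for IGHJ4.

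Whether the replicate numbers pair the libraries is not known. With the replicate number as a block, 6 pairs were called within V genes, 3 within families and 0 with D genes, and IGHJ1 within IGHV11-2 stayed at -1.18. With the numbers crossed, 5 pairs were called within V genes and 6 with D genes.

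The difference in productive share, Igll1-/- minus WT in percentage points, became -11.3 for IGHJ1, 1.94 for IGHJ2 and -4.41 for IGHJ4 by reads, 3.60 for IGHJ3 and -2.27 for IGHJ4 with at least 10 reads, and 0.40 for IGHJ4 with at least 2. Leaving out 1 library gave -0.90 to 0.98, 1.22 to 1.65, 0.91 to 2.81 and 0.50 to 1.72 for IGHJ1 to IGHJ4. The CDR3 length difference became 0.42 residues for IGHJ1 and -0.66 for IGHJ3 by reads, and 0.20 for IGHJ1 and -0.37 for IGHJ2 with at least 10 reads. Leaving out 1 library gave -0.19 to 0.12, -0.27 to -0.099, -0.61 to -0.037 and -0.41 to 0.034.

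The J share in productive minus unproductive clonotypes became 5.76, 2.49, 4.44 and -12.7 points by reads for IGHJ1 to IGHJ4, and 1.34, -0.74, 4.99 and -5.59 with at least 10 reads. With at least 2 reads it became -1.67 for IGHJ2, 5.49 for IGHJ3 and -3.81 for IGHJ4. Leaving out 1 library gave -1.90 to -0.17, 0.23 to 0.77, 1.41 to 3.01 and -2.36 to -0.66. The difference in the share keeping the common 5-residue end became -3.35 for IGHJ1, 8.24 for IGHJ2 and 1.51 for IGHJ4 by reads, and 2.90 and 5.63 for IGHJ2 with at least 2 and 10 reads. Leaving out 1 library gave 1.30 to 4.01, 0.91 to 2.76, -2.50 to 0.67 and -1.78 to 1.19.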

Other observations

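Some J rearrangements were shared by all 4 libraries. Counted on the same V gene, J gene and CDR3 among productive clonotypes, 174 of IGHJ1, 1076 of IGHJ2, 333 of IGHJ3 and 170 of IGHJ4 occurred in every library. They held 73.0% and 58.8% of productive IGHJ1 reads in WT and 63.0% and 19.5% in Igll1-/-, and 8.46% and 6.59% of productive IGHJ4 reads in WT against 12.1% and 6.78%. For IGHJ2 the values were 23.6% and 13.5% against 42.6% and 26.5%, and for IGHJ3 11.4% and 14.7% against 31.6% and 16.9%. Possible copies between libraries are not taken out of these counts.

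The share of productive clonotypes whose sequenced part of the V gene was listed as identical to the germline was 49.6% and 51.7% for IGHJ1 in WT and 45.8% and 34.2% in Igll1-/-, and 39.6% and 41.8% against 35.3% and 34.1% for IGHJ3. For IGHJ4 it was 43.2% and 42.8% against 39.8% and 37.6%, and for IGHJ2 45.6% and 43.6% against 44.2% and 40.3%. IGHJ1, IGHJ3 and IGHJ4 did not overlap between genotypes, 75% of the 4 J genes. Separation was common in these libraries, at 41% of all segments by share of clonotypes.

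The largest IGHJ1 clonotype took 18.4% and 19.9% of IGHJ1 reads in WT and 50.3% and 21.6% in Igll1-/-. In Igll1-/- replicate 2 it was AGDMMGYWYFDV from IGHV12-3, which is listed as unproductive although its CDR3 holds no stop, and which had 7975 reads there and 29, 13 and 10 in the others. ATMITTWFAY, the largest IGHJ3 clonotype of that library, had 2404 reads there and 0 in the other 3. Of the clonotypes with several J genes, 23 were listed as IGHJ2 or IGHJ4.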
